A study of Mus musculus with 8 samples.

Results

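Selenbp1 and Selenbp2 encode the selenium-binding proteins of mouse liver, and their RNA was followed across genotype and alcohol diet in 8 liver libraries. They are 2 of the 19267 genes in the count table, and both passed the filter on low counts. The pair was picked by name because Selenbp2 fell over 100-fold upon alcohol exposure in WT mice, so every value of that comparison is given here as a description with no test. Selenbp1 came with it as its closest relative.

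Livers came from male C57BL/6 mice, 6 weeks old when a liquid diet of the Lieber-DeCarli type began and 9 weeks old when it ended 21 days later. The EtOH groups drank the diet with 5% (w/v) alcohol, and the Control groups received maltose dextrin of equal calories in place of the alcohol. Elf4-/- denotes Elf4fl/fl-Villin-Cre mice, in which Cre driven by the murine villin promoter removes the transcription factor gene Elf4 from intestinal epithelium, so that hepatocytes are not the cells targeted. Per the study's methods, WT mice were Cre mice, so the controls carry the transgene too. Each of the 4 groups (WT Control, WT EtOH, Elf4-/- Control, Elf4-/- EtOH) holds 2 libraries, and nothing in the labels says whether a library is 1 animal or a pool. The p-values below therefore measure the spread between these libraries, which may be technical in part.

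Despite their name, neither protein contains selenocysteine, the amino acid that defines a selenoprotein. SELENBP1 binds selenium in another way and works as a methanethiol oxidase, an enzyme that turns the sulfur compound methanethiol into hydrogen sulfide, formaldehyde and hydrogen peroxide. Selenbp2 is a close mouse copy known in liver as a binding protein of acetaminophen, and it is one of the genes that are more strongly expressed in the liver of male than of female mice. Hepatocytes are a main site of both RNAs.

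The genes are near-identical neighbours, so their sequence decides how well reads can be told apart. In GENCODE M21 on GRCm38, the assembly of mm10, Selenbp2 (ENSMUSG00000068877.12) spans bases 94693556 to 94704413 of chromosome 3 and Selenbp1 (ENSMUSG00000068874.13) spans bases 94933056 to 94944758. Both are protein-coding genes on the plus strand, no annotated gene overlaps either, and 228642 bases with 3 other protein-coding genes lie between them. To show how alike their starts are, the 250 bases before each start annotated by RefSeq, which lies inside the GENCODE gene so that the last 27 bases for Selenbp1 and the last 17 for Selenbp2 belong to it, are printed here 5′ to 3′ from RefSeq on GRCm38.p6, plus strand, at chr3:94932833-94933082 for Selenbp1 and chr3:94693323-94693572 for Selenbp2, with capitals at bases that differ from the other gene or have no partner in it.
Selenbp1: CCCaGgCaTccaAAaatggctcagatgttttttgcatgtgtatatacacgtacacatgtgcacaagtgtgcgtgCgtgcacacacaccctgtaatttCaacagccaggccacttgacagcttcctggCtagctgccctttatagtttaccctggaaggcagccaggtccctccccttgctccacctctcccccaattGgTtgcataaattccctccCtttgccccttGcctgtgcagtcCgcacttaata
Selenbp2: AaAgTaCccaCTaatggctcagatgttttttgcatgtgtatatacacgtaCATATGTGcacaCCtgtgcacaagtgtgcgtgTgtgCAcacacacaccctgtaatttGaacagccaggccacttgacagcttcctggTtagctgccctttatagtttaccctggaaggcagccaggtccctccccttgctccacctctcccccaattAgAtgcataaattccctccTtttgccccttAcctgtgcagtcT
Of the 250 bases printed for Selenbp2, 224 were identical to the aligned base of Selenbp1, 14 differed and 12 had no partner, so 89.6% matched.

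Motif letters were then searched in both windows. The letters TATAAA, searched on both strands, occurred once in each, on the reverse strand at position -113 in Selenbp1 and -103 in Selenbp2 counted from the RefSeq start, and in 12.4% of 32851 RefSeq windows of the same length. CCAAT, searched on both strands, occurred 2 times in Selenbp1 and 1 time in Selenbp2, against 33.8% of windows with at least 1. The STAT element TTCNNNGAA was found in neither window and in 7.02% of all windows. The nuclear receptor half-site AGGTCA was in neither window and in 14% of all, and so neither held the DR1 element, a direct repeat of it. The HNF1 element, a palindrome, was in neither. A match or its absence describes these letters only.

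The transcripts were more alike than the promoters. Both canonical transcripts have 12 exons and a coding sequence of 1416 bases, of which 1398 (98.7%) were identical. Exons 8 and 10 were the same in both genes, whereas exon 5 was the least alike, with 4 of 121 bases different. The longest run shared by the transcripts was 193 bases. Of all 150-base stretches of the Selenbp1 transcript, 6.97% also occurred in the Selenbp2 transcript, and of all 50-base stretches 52.3% did. No 50-base stretch of either gene occurred in a transcript of any other gene. The libraries were read as pairs of 150-base ends, so most fragments hold at least 1 base that differs between the genes, but how the authors treated reads that matched both was not given in the sources used here. Counts of either gene are uncertain to that extent.

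**Figure D1:**
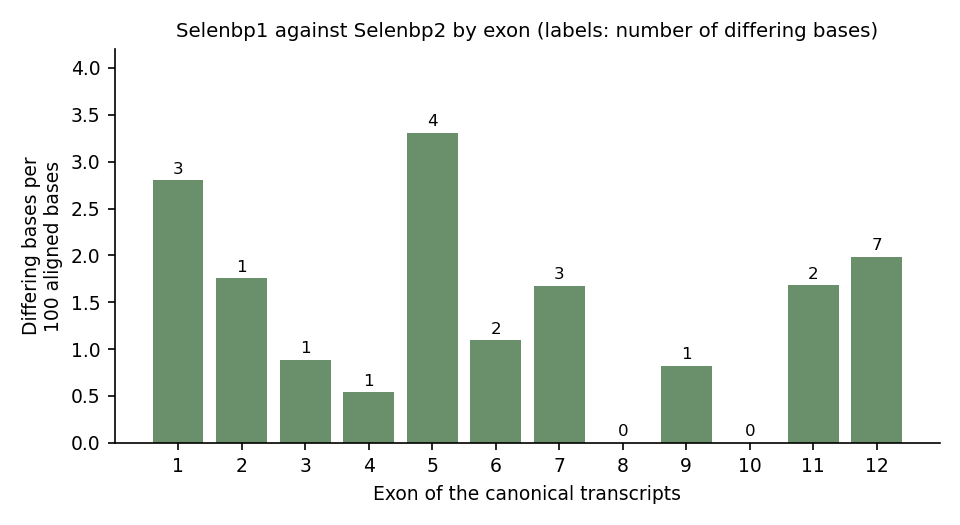
Differing bases per 100 aligned bases (vertical axis) in each of the 12 exons of the canonical Selenbp1 and Selenbp2 transcripts (horizontal axis), with the number of differing bases above each bar. Exons 8 and 10 have 0 differing bases and exon 5 has the highest rate, 3.31 per 100.

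Library totals ran from 6171051 to 9157362 counts. Levels are given as CPM, counts scaled to a common library size with TMM factors. The sums of marker genes given further below are the exception and were scaled by library totals alone. All 8 hepatocyte marker genes checked (Alb, Apoa1, Ttr and others) were present in every group. Elf4 itself had 6 to 36 counts per library in both genotypes, which checks nothing about a deletion in intestine.

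Selenbp2 was among the most abundant liver RNAs on the control diet and far lower in every EtOH library. In WT Control, its counts were 5090 and 6002, or 949 and 1104 CPM. In WT EtOH, they were 103 and 29, or 13.0 and 2.96 CPM. No EtOH library came near a Control library, and the lowest Control value was 72.9-fold above the highest EtOH value. Mean levels were 1027 ± 110 CPM and 7.99 ± 7.12 CPM (SD, n = 2), a fitted log2 difference of -7.02 ± 0.75 (SE) or 130-fold lower. In WT 21.6% of genes were called in either direction and in 32.7% the EtOH libraries lay below both Control libraries. This is the difference for which the gene was picked, and 5 of the 13993 genes tested had a lower fitted value in WT. In bulk liver, fewer cells of a type and less RNA per cell cannot be told apart.

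In Elf4-/- mice, whose libraries the choice did not use, Selenbp2 also fell. The test below takes its spread from all 8 libraries, which include the WT libraries that chose the gene. In a fit of only the 4 Elf4-/- libraries, the log2 difference of EtOH against Control was -4.95. Its adjusted p in that fit was 0.0471 by edgeR's quasi-likelihood test. Elf4-/- Control libraries held 6289 and 11259 counts, or 645 and 1679 CPM, and thus differed from each other by 2.61-fold. Elf4-/- EtOH libraries held 184 and 344 counts, or 29.3 and 45.6 CPM. Again the groups were far apart, with 14.1-fold between the lowest Control and the highest EtOH library. Both EtOH libraries lay below both Control libraries in 26.3% of all genes. Mean levels were 1162 ± 732 CPM and 37.5 ± 11.5 CPM (SD, n = 2). The log2 difference was -4.95 ± 0.67 (SE, 95% interval -6.45 to -3.45), or 30.9-fold lower, with an adjusted p of 0.00972 by edgeR's quasi-likelihood test over all 13993 genes. In this comparison 2.89% of genes were called in either direction and 1.18% were called lower, and the fitted change of Selenbp2 was the 11th lowest. Without Elf4-/- Control replicate 2, the library with the highest Selenbp2 level, the log2 difference was -4.10 and the adjusted p was 0.124, so the call, but not the direction, depended on that library.

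Selenbp1 moved far less. In WT Control its counts were 974 and 1303 (182 and 240 CPM), and in WT EtOH they were 1127 and 1334 (142 and 136 CPM). The EtOH libraries lay just below the Control libraries, as in 32.7% of all genes. The log2 difference was -0.60 ± 0.24 (SE) or 1.51-fold lower, given as a description. Under scaling by library totals alone the Selenbp1 difference was -0.17, in a comparison where that scaling moved the median of all genes by 0.43.

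No change of Selenbp1 upon alcohol exposure was detected in Elf4-/- mice. The Control libraries held 1849 and 1868 counts (190 and 279 CPM) and the EtOH libraries 1242 and 1466 counts (198 and 194 CPM). The groups overlapped, since both EtOH values lay between the Control values. The log2 difference was -0.25 ± 0.24 (SE, 95% interval -0.80 to 0.29) with an adjusted p of 0.588 by edgeR's quasi-likelihood test. A fall of the size seen for Selenbp2 in the same livers lies outside that interval, and a fall of up to 0.80 on the log2 scale lies inside it. Leaving out Elf4-/- Control replicate 2 turned the sign, to 0.050.

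**Figure D2:**
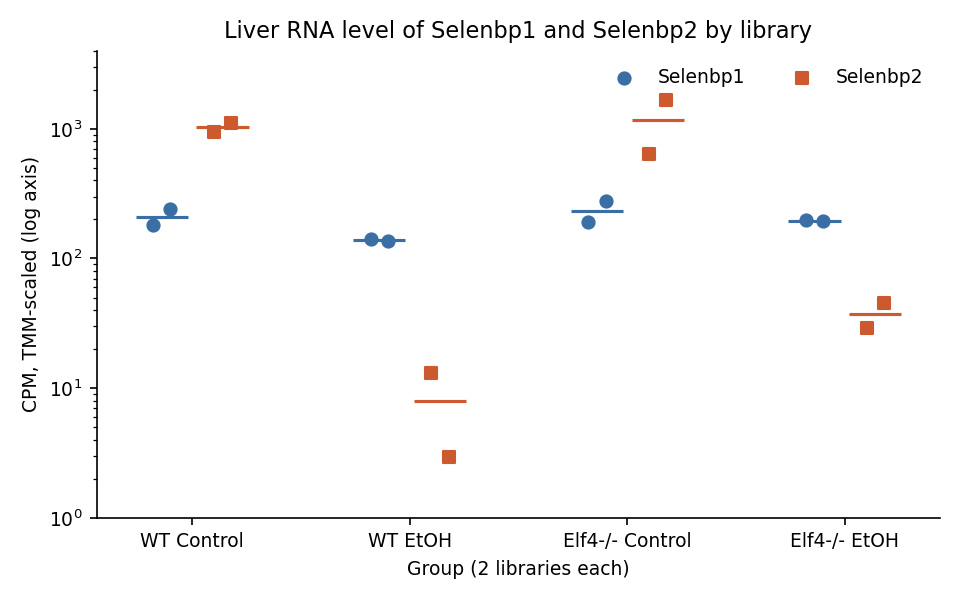
Level of Selenbp1 (circles) and Selenbp2 (squares) in CPM scaled by TMM on a log axis, for the 2 libraries of each group, with a line at the group mean. Selenbp2 lies between 645 and 1679 CPM in the 4 Control libraries and between 2.96 and 45.6 CPM in the 4 EtOH libraries, while Selenbp1 stays between 136 and 279 CPM in all 8.

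Levels per length put the pair in order. The exons of the genes cover 2273 bases (Selenbp1) and 2271 bases (Selenbp2), and CPM was divided by that length in kilobases for the 13741 tested genes with a length. In WT Control, the level of Selenbp2 was 451 ± 48.3 CPM per kb and ranked 108th of those genes. In WT EtOH, it was 3.51 ± 3.13 CPM per kb and ranked 6626th. The Elf4-/- Control level of Selenbp2 was 511 ± 322 CPM per kb, rank 97, and the Elf4-/- EtOH level was 16.5 ± 5.07 CPM per kb, rank 2181 (SD, n = 2). Selenbp1 kept close to its rank, with 92.5 ± 18.1 CPM per kb (rank 489) in WT Control, 61.1 ± 2.04 (rank 682) in WT EtOH, 103 ± 27.7 (rank 440) in Elf4-/- Control and 86.2 ± 1.07 (rank 562) in Elf4-/- EtOH. From high to low, the Selenbp2 means ran Elf4-/- Control, WT Control, Elf4-/- EtOH, WT EtOH, and the values of the first 2 of these groups overlapped. The Selenbp1 means ran in that same order of groups, with overlap between the Control groups and between Elf4-/- EtOH and each of them.

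The order of the genes within a library changed places with the diet. Because both counts come from the same library, their ratio does not depend on how libraries were scaled. Selenbp2 counts were 5.23 and 4.61 times those of Selenbp1 in WT Control, and 3.40 and 6.03 times in Elf4-/- Control. They were 0.0914 and 0.0217 times those of Selenbp1 in WT EtOH and 0.148 and 0.235 times in Elf4-/- EtOH. Selenbp2 was thus the larger of the pair in all 4 Control libraries and the smaller in all 4 EtOH libraries.

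Expressed as a share of the counts of both genes, Selenbp2 held 83.9% (95% Wilson interval 83.0 to 84.8) and 82.2% (81.3 to 83.0) in WT Control. In WT EtOH it held 8.37% (6.95 to 10.1) and 2.13% (1.49 to 3.04). In Elf4-/- Control the share was 77.3% (76.4 to 78.2) and 85.8% (85.2 to 86.4), and in Elf4-/- EtOH it was 12.9% (11.3 to 14.7) and 19.0% (17.3 to 20.9). These intervals cover counting error only, and replicates of a group often differed by more than their intervals. The mean log2 ratio of Selenbp2 to Selenbp1 was 2.18 ± 0.58 in Elf4-/- Control and -2.42 ± 0.47 in Elf4-/- EtOH (SD, n = 2), 24.3-fold lower, with a two-sided exact permutation p of 0.333, which is the smallest that 2 against 2 libraries allow. In WT it went from 2.29 ± 0.13 to -4.49 ± 1.46, 110-fold lower, as a description.

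**Figure D3:**
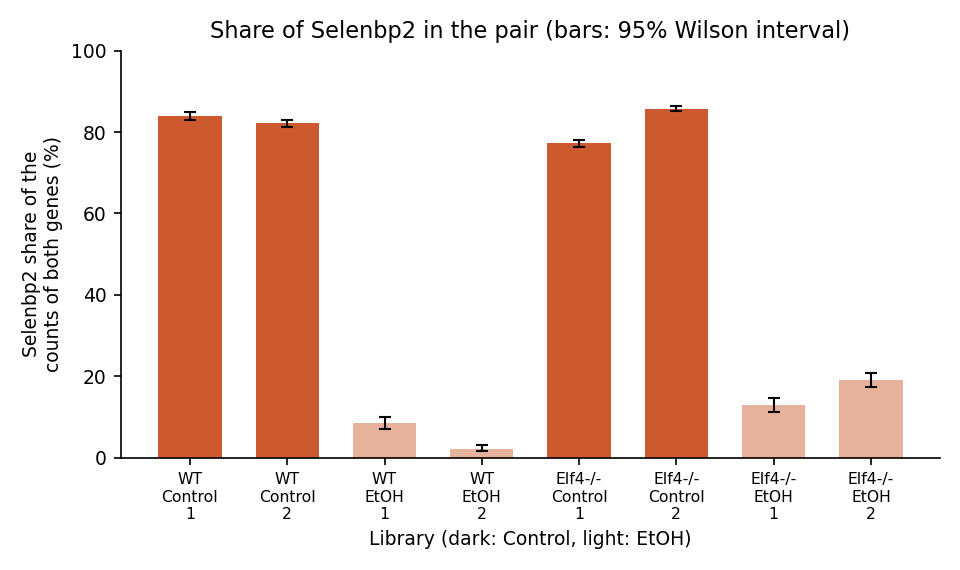
Selenbp2 counts as a percentage of Selenbp1 plus Selenbp2 counts in each library, with 95% Wilson intervals as bars. The 4 Control libraries (dark) lie between 77.3% and 85.8% and the 4 EtOH libraries (light) between 2.13% and 19.0%.

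The levels also limit how many Selenbp1 reads can have been counted as Selenbp2. In WT EtOH replicate 2, the Selenbp2 counts equalled 2.17% of the Selenbp1 counts, so no more than that share of Selenbp1 reads can have been counted as Selenbp2 in that library. In the other direction, Selenbp1 was 71.5 CPM higher in WT Control than in WT EtOH, equal to 7.01% of the 1019 CPM by which Selenbp2 was higher. In Elf4-/- mice, the corresponding values were 37.8 CPM and 3.37% of 1125 CPM. These shares set no limit on Selenbp2 reads counted as Selenbp1, since the true Selenbp1 level under either diet is not known. Whether reads of Selenbp2 counted as Selenbp1 play a part in the small Selenbp1 differences was not tested.

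Genotype was compared under each diet with the same fit. On the control diet, Selenbp1 differed by a log2 value of 0.15 ± 0.24 (SE, 95% interval -0.39 to 0.69) between Elf4-/- and WT, with an adjusted p of 0.941 by edgeR's quasi-likelihood test, and the groups overlapped. In this comparison 0.0143% of genes were called. The sign of the difference turned without WT Control replicate 1 (-0.03) and without Elf4-/- Control replicate 2 (-0.15). Selenbp2 differed by 0.18 ± 0.57 (SE) on the control diet, with overlapping groups, and turned to -0.67 without Elf4-/- Control replicate 2 and to 0.72 without replicate 1. Under library totals the values were 0.36 for Selenbp1 and 0.37 for Selenbp2.

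Under EtOH both genes lay higher in Elf4-/- than in WT livers. Selenbp1 was 198 and 194 CPM against 142 and 136 CPM, a log2 difference of 0.50 ± 0.24 (SE, 95% interval -0.05 to 1.04), or 0.26 under scaling by library totals. The libraries did not overlap, as in 20% of all genes in that direction, but the adjusted p by edgeR's quasi-likelihood test was 0.520 and the gene was not called, with 0.143% of genes called in this comparison. This test shares its WT EtOH libraries with the difference for which the pair was picked. Selenbp2 was 29.3 and 45.6 CPM against 13.0 and 2.96 CPM, a log2 difference of 2.25 ± 0.63 (SE) or 4.75-fold, given with no test because WT EtOH chose the gene. The 2 WT EtOH libraries differed from each other by 4.41-fold, and without WT EtOH replicate 2 or replicate 1 the difference moved between 1.52 and 3.65. The diet difference in Elf4-/- minus that in WT was 2.07 ± 0.84 (SE) for Selenbp2 and 0.34 ± 0.34 (SE) for Selenbp1, both as descriptions. The Selenbp1 value turned to -0.10 under library totals, and the Selenbp2 value ranged from 1.34 to 3.47 with 1 library left out.

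**Figure D4:**
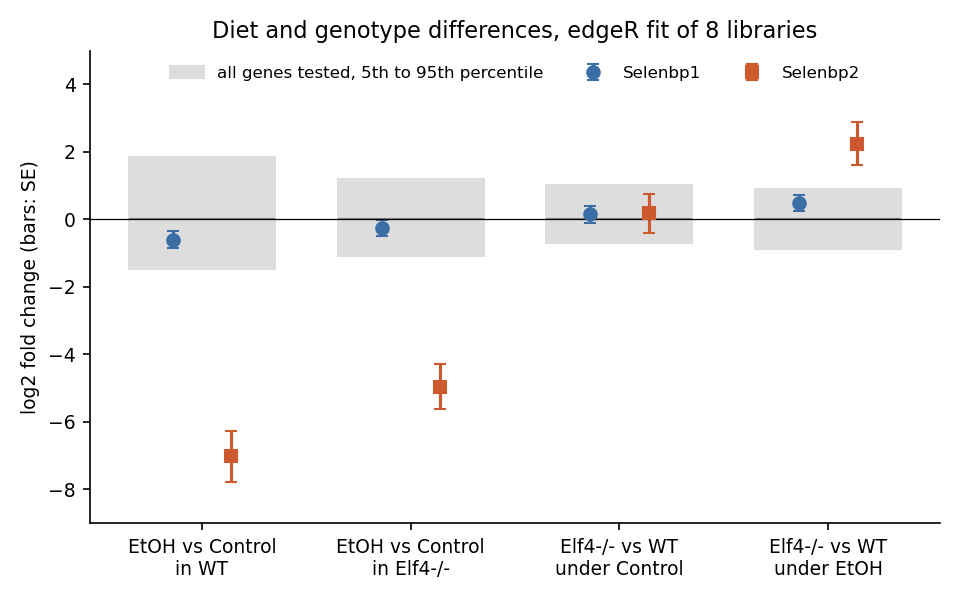
Fitted log2 differences (symbols) with SE (bars) of Selenbp1 (circles) and Selenbp2 (squares) for EtOH against Control within each genotype and for Elf4-/- against WT within each diet, over grey boxes from the 5th to the 95th percentile of all 13993 genes tested. Selenbp2 lies far below the box in both diet comparisons, at -7.02 and -4.95, and Selenbp1 lies inside the box in all 4.

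Other features of the libraries moved with the diet. The marker sums in this paragraph are CPM scaled by library totals alone, without TMM factors, so they are not on the scale of the other levels. The TMM factors were 0.841 and 0.882 in WT Control against 1.13 and 1.19 in WT EtOH. Scaling with them would raise the WT Control sums and lower the WT EtOH sums. The summed level of 5 Kupffer cell markers, none of them at 0, was 132 to 166 CPM in the WT Control libraries against 592 to 623 CPM in the WT EtOH libraries, and was 132 to 149 CPM in Elf4-/- Control against 188 to 190 CPM in Elf4-/- EtOH. The sum of 4 sinusoidal endothelium markers was 34.5 to 54.5 CPM in WT Control against 187 to 235 CPM in WT EtOH, and 86.4 to 102 CPM against 81.6 to 135 CPM in Elf4-/- mice. The sum of 4 stellate cell markers was 13.4 to 27.6 CPM against 92.5 to 128 CPM in WT, and 40.7 to 62.2 CPM against 63.1 to 85.3 CPM in Elf4-/- mice. None of these markers was at 0 in a group. The 8 hepatocyte markers summed to 47775 to 70771 CPM in WT Control against 41283 to 50667 CPM in WT EtOH, and to 72510 to 73747 CPM in Elf4-/- Control against 43782 to 58552 CPM in Elf4-/- EtOH. Mitochondrially encoded genes held 33.7% and 23.4% of the WT Control counts against 12.5% and 10.8% of the WT EtOH counts, and 18.3% to 22.1% in the Elf4-/- libraries of both diets. Their part in the values of Selenbp1 and Selenbp2 was not tested.

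The 3 protein-coding genes between the pair, chosen for their position, did not share the fall of Selenbp2. For Cgn, which encodes the tight junction protein cingulin, the log2 difference upon alcohol exposure was -0.57 ± 0.43 (SE) in WT and -0.12 ± 0.42 in Elf4-/- mice, and for Pogz it was -0.52 ± 0.20 and -0.39 ± 0.20. None of these 4 values passed the test. Psmb4, a subunit of the proteasome, rose in WT, where its log2 difference was 1.60 ± 0.29 (adjusted p = 0.00592 by edgeR's quasi-likelihood test). Its value of 1.07 ± 0.28 in Elf4-/- mice did not pass (adjusted p = 0.0724).

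The genes whose pattern over the 8 libraries was nearest to that of Selenbp2 were Gm31583, Serpina1e, Mup11, Mup12 and Mup7. Likeness was the root mean square difference of log2 CPM after subtracting each gene's mean, and was ranked over the 9398 genes that averaged 50 or more counts a library, where these 5 genes differed from Selenbp2 by 1.10, 1.18, 1.25, 1.25 and 1.34. The points share their libraries and their depth. Gm31583 held 380 and 591 counts in WT Control against 16 and 11 in WT EtOH. In Elf4-/- mice it held 269 and 540 counts against 35 and 16. Serpina1e, a member of the alpha-1-antitrypsin family of secreted protease inhibitors, held 21859 and 21611 counts in WT Control against 914 and 707 in WT EtOH. In Elf4-/- mice Serpina1e held 28563 and 30519 counts on the control diet and 204 and 2242 with alcohol. Mup7, which encodes a major urinary protein that male mice secrete, held 8282 and 22732 counts in WT Control against 240 and 69 in WT EtOH. Its Elf4-/- counts were 18099 and 26906 on the control diet against 37 and 173 with alcohol. All 5 were high in the 4 Control libraries and low in the 4 EtOH libraries, which follows from their choice by likeness to Selenbp2 over these same libraries. Mup and Serpina1 genes have near-identical copies, so their counts carry the same doubt as those of the pair.

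For Selenbp1, the 5 nearest genes were Klhl25, Tmem19, Ttc36, Cyb5r3 and Uqcrb, with root mean square differences of 0.104, 0.108, 0.110, 0.113 and 0.118 log2 units. Cyb5r3 encodes a cytochrome b5 reductase and Uqcrb a subunit of respiratory complex III. The diet differences of these 5 genes were as small as that of Selenbp1, from -0.76 to -0.52 in WT and from -0.37 to -0.07 in Elf4-/- mice. That too follows from their choice by likeness. Selenbp1 and Selenbp2 themselves differed by 2.97 log2 units, which put Selenbp1 1678th among the genes nearest to Selenbp2. The log2 CPM of Selenbp1 had an SD of 0.34 over the 8 libraries and that of Selenbp2 an SD of 3.44.

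Selenoproteins proper, which carry selenocysteine, did not follow Selenbp2. Of 24 genes listed, 20 were tested. Upon alcohol exposure in Elf4-/- mice, edgeR called 0 of them, 8 had a higher value at an unadjusted p under 0.05, as did 10.9% of all genes, and DESeq2 called 3 higher, among the 452 genes it called higher in all. The list's median log2 difference was 0.48 beside 0.01 over all genes. In WT 7 were called higher and 1 lower, with a median of 0.77, when 10.8% of all genes were called higher and 10.8% lower. Gpx4, which reduces lipid peroxides, held 472 and 785 counts in WT Control against 3200 and 5137 in WT EtOH, and rose by 2.0 ± 0.31 (SE) on the log2 scale in WT. Gpx1, the main glutathione peroxidase of hepatocytes, rose by 1.92 ± 0.39, and Selenop, the selenium carrier that liver secretes into plasma, rose by 1.47 ± 0.31. Txnrd1, a thioredoxin reductase, rose by 0.84 ± 0.18. By contrast, Selenok, a protein of the endoplasmic reticulum, fell by 0.99 ± 0.19, with 1190 and 1143 counts in WT Control against 879 and 1050 in WT EtOH. The number called higher in WT ranged from 2 to 12 over the alternatives, with 12 under library totals, 2 without WT EtOH replicate 1, 3 without WT EtOH replicate 2, 3 without WT Control replicate 1, and 4 without either Elf4-/- Control library. The fall of Selenok was not called under library totals or without either WT EtOH library. The values in Elf4-/- mice were 1.11 ± 0.30 for Gpx4, 1.47 ± 0.39 for Gpx1, 0.92 ± 0.31 for Selenop and 0.46 ± 0.18 for Txnrd1, and none passed the test.

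Genes that recycle selenium or insert selenocysteine, 9 in all, had 0 calls in Elf4-/- mice by edgeR and by DESeq2. In that comparison 0 had an unadjusted p under 0.05. In WT 1 of the 9 was called lower, near the share of all genes called lower there, 10.8%. The medians were -0.07 in Elf4-/- mice and -0.28 in WT. The WT median was 0.15 under scaling by library totals. The called gene was Scly, which releases selenium from selenocysteine, with 371 and 407 counts in WT Control against 253 and 353 in WT EtOH. It fell by 1.08 ± 0.19 (SE) on the log2 scale in WT (adjusted p = 0.00516 by edgeR's quasi-likelihood test), and this call was lost without WT EtOH replicate 1.

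RNA of enzymes that handle the products of methanethiol oxidation or related sulfur compounds was read in 2 further lists. These libraries hold no measure of the compounds themselves. Of 9 genes that make or oxidise hydrogen sulfide and sulfur amino acids, 1 was called higher in Elf4-/- mice, beside 1.71% of all genes. In WT 3 were called higher and 2 lower, beside 10.8% of all genes in each direction. Suox, the sulfite oxidase that ends the pathway, held 156 and 117 counts in Elf4-/- Control against 616 and 400 in Elf4-/- EtOH. It rose by 2.18 ± 0.30 (SE) in Elf4-/- mice (adjusted p = 0.00972 by edgeR's quasi-likelihood test) and by 1.56 ± 0.30 in WT. That Elf4-/- call was absent without Elf4-/- Control replicate 1 or replicate 2. Csad, which makes hypotaurine on the way to taurine, rose by 2.68 ± 0.62 in WT. The transsulfuration enzymes that produce cysteine and hydrogen sulfide moved the other way in WT, where Cbs fell by 1.57 ± 0.23 and Cth fell by 0.93 ± 0.26. Only 1 of these falls was called under library totals and in each of 5 fits that left out 1 library, and 1 of the 3 rises was called without WT EtOH replicate 2. The list medians were 0.66 in Elf4-/- mice and 0.27 in WT.

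Of 12 genes that remove formaldehyde or hydrogen peroxide, 2 rose in Elf4-/- mice, beside 1.71% of all genes, and 4 in WT, beside 10.8%, and none fell. Prdx1, a peroxiredoxin that reduces hydrogen peroxide, held 2593 and 1918 counts in Elf4-/- Control against 6735 and 5313 in Elf4-/- EtOH. It rose by 1.69 ± 0.29 (SE) in Elf4-/- mice and by 2.16 ± 0.29 in WT. Prdx3, the mitochondrial peroxiredoxin, rose by 1.33 ± 0.30 in Elf4-/- mice, and Gpx1 was the other large rise in WT. The Elf4-/- count ranged from 0, without either Elf4-/- Control library, to 4, without Elf4-/- EtOH replicate 2. The WT count was 7 under library totals and 2 without WT Control replicate 1 or WT EtOH replicate 2.

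Since Selenbp2 is a male-biased liver gene, lists of sex-biased genes were read beside it. Of 17 male-biased genes without the pair, 8 were called lower in Elf4-/- mice, where 1.18% of all genes were, and 11 in WT, where 10.8% were. None was called higher except 1 in WT under library totals. The list medians were -2.07 and -2.41. Mup1, Mup7, Mup20 and Mup21 were among the genes called lower in both genotypes. Mup genes have near-identical copies, so these calls may not be separate from each other. Mup7 fell by 7.66 ± 1.0 (SE) in Elf4-/- mice and fell by 7.27 ± 0.98 in WT. Hsd3b5, a steroid-metabolising enzyme of male liver, held 518 and 1072 counts in WT Control against 10 and 11 in WT EtOH. Its Elf4-/- counts were 969 and 754 against 0 and 12. Hsd3b5 fell by 6.92 ± 0.65 in Elf4-/- mice and fell by 6.93 ± 0.62 in WT. Selenbp2, at -4.95, lay within the range of the called male-biased genes in Elf4-/- mice. In WT its -7.02, the value it was picked on, lay near the low end of their range, with Mup7 lower at -7.27. The Elf4-/- count was 4 without Elf4-/- Control replicate 1 and 3 without replicate 2, and the WT count was 7 without WT EtOH replicate 2. The Elf4-/- median was -4.26 without Elf4-/- EtOH replicate 2.

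Female-biased liver genes moved the opposite way. Of 17 listed, 12 were in the table and 9 passed the filter, several only because they were high in an EtOH group, so their counts are a description. Cyp2b9, a cytochrome P450 of female liver, held 13 and 3 counts in Elf4-/- Control against 2431 and 1421 in Elf4-/- EtOH. Cyp2b13 held 1 and 1 counts in Elf4-/- Control against 611 and 140 in Elf4-/- EtOH, at least 154-fold higher against a floor of 3 counts per library. Acot3, an acyl-CoA thioesterase, held 2 and 3 counts in WT Control against 1047 and 2560 in WT EtOH, at least 354-fold higher. Of these 9, 5 were called higher in Elf4-/- mice and 6 in WT, beside 1.71% and 10.8% of all genes, and 1 was called lower by DESeq2 in Elf4-/- mice. The fitted medians were 4.59 and 6.67, and the WT median was 4.71 with the 4 genes at the floor set to their bounds. The Elf4-/- count was 2 without either Elf4-/- Control library and 8 without Elf4-/- EtOH replicate 2, and the WT count was 3 without WT Control replicate 2.

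PPAR alpha is the nuclear receptor that switches on fatty acid oxidation in fasting liver. Of 15 of its targets tested, 6 rose in Elf4-/- mice (1.71% of all genes were called higher) and 12 in WT (10.8% of all genes), and none fell, with medians of 1.04 and 2.05. Cyp4a14, a fatty acid omega-hydroxylase, held 552 and 137 counts in Elf4-/- Control against 27366 and 7300 in Elf4-/- EtOH. It rose by 6.11 ± 1.19 (SE) in Elf4-/- mice and by 7.49 ± 1.28 in WT. Pdk4, a kinase that restrains glucose oxidation, rose by 5.84 ± 1.30 in Elf4-/- mice, with 31 and 3 counts in Elf4-/- Control against 1375 and 63 in Elf4-/- EtOH. Most of that rise came from Elf4-/- EtOH replicate 1, since replicate 2 lay at 8.34 CPM beside 3.17 CPM in Elf4-/- Control replicate 1. Acot1, another acyl-CoA thioesterase, rose by 7.43 ± 0.49 in WT, with 6 and 4 counts in WT Control against 1169 and 1734 in WT EtOH. Its fitted size thus rests on few Control counts. The Elf4-/- count was 1 without Elf4-/- Control replicate 1 and 1 without replicate 2, and the WT count was 8 without WT Control replicate 2 and 8 without WT EtOH replicate 2. Between genotypes, edgeR called 0 of the 89 genes tested from the 7 lists under either diet, with 8 (8.99%) under Control and 20 (22.5%) under EtOH at an unadjusted p under 0.05, beside 7.31% and 10.5% of all genes.

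**Figure D5:**
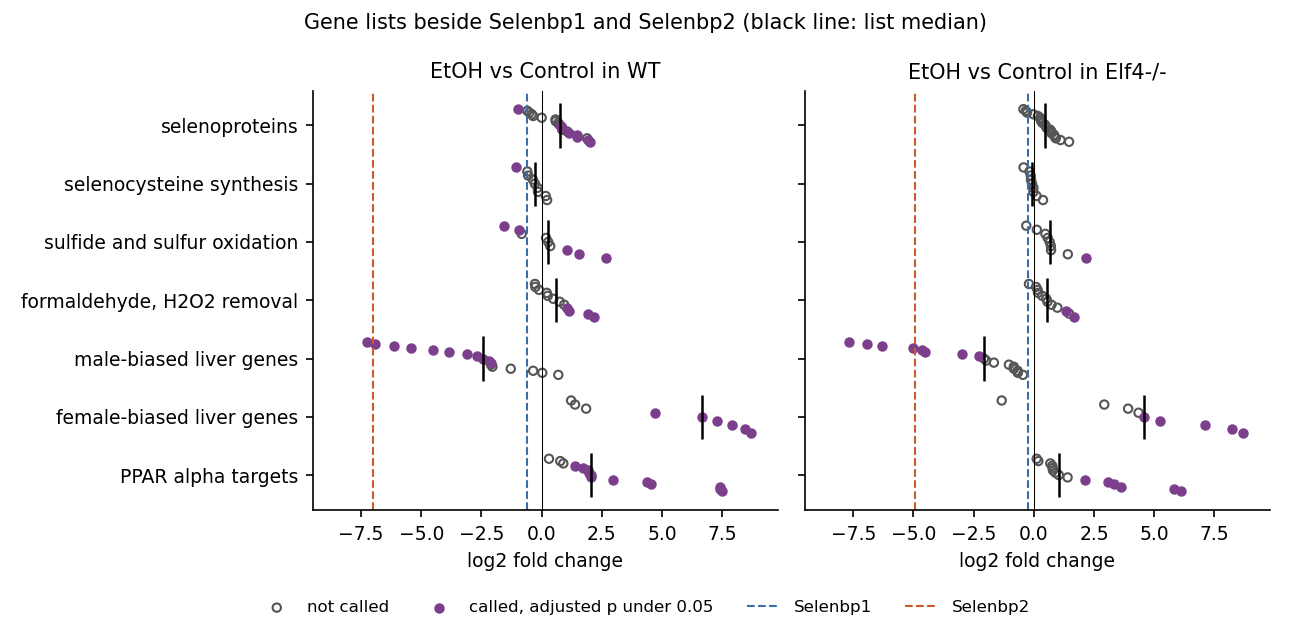
Fitted log2 differences of EtOH against Control in WT (left) and Elf4-/- mice (right) for each tested gene of the 7 lists, filled where the adjusted p was under 0.05, with a black line at each list median and dashed lines at Selenbp1 and Selenbp2. Selenbp2 falls among the called male-biased genes in the Elf4-/- panel, at -4.95. In WT it lies near their low end, at -7.02, the value it was picked on. The selenoprotein medians are 0.77 in WT and 0.48 in Elf4-/- mice.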

How the data were processed

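Liver RNA for 8 libraries was extracted with Trizol and sequenced by the authors as paired 150-base reads on an Illumina HiSeq. The submitters' notes and the study's methods name FastQC, HISAT2 with mm10, SAMtools, HTSeq and DESeq2. Versions, annotation, strand setting and the handling of ambiguous reads were not given in the sources used here. The authors deposited raw read counts for each gene symbol as whole numbers, and all 8 sample columns were used.

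The table was filtered with filterByExpr (13993 of 19267 genes kept) and fitted in edgeR 4.0.16 under R 4.3.3 with TMM factors, 4 groups and no covariate, all 8 libraries in 1 model (biological coefficient of variation 22.7%). Diet and genotype differences were tested with the quasi-likelihood test and Benjamini-Hochberg adjustment over all genes tested at a threshold of 0.05. SE is the log2 difference over the square root of F. Log2 CPM used a prior count of 2. The script was tested on simulated counts. Alternatives were DESeq2 1.42.0, other scalings and filters, a replicate block, a fit of only the 4 libraries compared, and each library left out.

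Selenbp1 and Selenbp2 and all gene lists were chosen with earlier results of these data known. Genes beside them were named by a rule: the 5 nearest patterns for each, the 2 largest called rises and falls per list and diet comparison, Selenop, Gpx1, Gpx4, Txnrd1 and Elf4. The neighbouring genes were added for their position after their values were seen. A gene that the rule named is not reported here.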

Additional observations from a re-analysis of the deposited data

How the results depend on the processing

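Selenbp1 and Selenbp2 had at least 29 counts in each library. The 29 Selenbp2 counts of WT EtOH replicate 2 carry a counting error of 18.6%. Having 2 libraries a group limits every test, and intervals cover counting or library spread only. The alternatives moved no direction of Selenbp2 upon alcohol exposure. With single libraries left out, its log2 difference ranged from -5.49 to -4.10 in Elf4-/- mice (adjusted p 0.124 without Elf4-/- Control replicate 2) and from -8.43 to -6.31 in WT, and its genotype difference from -0.67 to 0.72 under Control and from 1.52 to 3.65 under EtOH. For Selenbp1 the ranges were -0.51 to 0.050 and -0.79 to -0.38 for diet in Elf4-/- and WT, and -0.15 to 0.41 and 0.46 to 0.52 for genotype under Control and EtOH. The sign turned to 0.050 (diet in Elf4-/-) and to -0.15 (genotype under Control) without Elf4-/- Control replicate 2, and to -0.03 (genotype under Control) without WT Control replicate 1. The diet difference in Elf4-/- minus that in WT ranged from 1.34 to 3.47 for Selenbp2 and from 0.090 to 0.65 for Selenbp1. The log2 ratio of Selenbp2 to Selenbp1 differed by -5.01 to -4.19 in Elf4-/- mice and by -7.82 to -5.75 in WT. Scaling by library totals gave -0.17 for Selenbp1 in WT and -0.10 for its interaction, and moved the median of all genes by 0.43 in WT, -0.03 in Elf4-/- mice and 0.23 and -0.23 between genotypes under Control and EtOH. Genes called upon alcohol exposure in Elf4-/- mice, 239 higher and 165 lower, were 452 and 359 by DESeq2, 22 and 18 with only the 4 libraries compared, and 5 to 824 and 4 to 859 with 1 library left out. The cause of these differences was not tested.

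Replicate numbers showed no shift shared between groups: deviations of same-numbered libraries correlated between -0.134 and 0.114. The study's methods describe pair-feeding, and whether same-numbered libraries come from such pairs is not stated. With a replicate block, Selenbp2 in Elf4-/- mice was -4.93 (adjusted p 0.0247 by edgeR), and 136 genes were called higher and 104 lower.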
